A study of Arabidopsis thaliana with 27 samples.

Results

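The libraries described here came from unshifted Arabidopsis thaliana seedlings: 4 libraries of seedlings kept at 22 °C, set against 11 libraries of seedlings kept at 17 °C. Together they were 15 of the 27 libraries of a series on temperature shifts, and they were chosen by their labels alone, with every gene of the deposited counts used. All seedlings were wild-type Col0, sampled whole, and no transgene or mutant was used. The 4 libraries at 22 °C were the unshifted controls of a 22-to-27 °C experiment, with 1 library each at 0 min, 15 min, 1 h and 4 h. Of the 11 libraries at 17 °C, 4 were the unshifted controls of a 17-to-37 °C experiment, with 1 library at each of the same times, and 7 were those of a 17-to-27 °C experiment, with 1 library at 0 min and 2 at each later time. The other 12 libraries were shifted to 27 or 37 °C and entered no test.

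The growth text in the labels is the same for every library. It describes long days and growth for 10 days at 17 °C, with the shifts begun in the morning, and it does not say how long the seedlings labelled 22 °C had been at that temperature. Growth temperature went with the experiment. The labels also name a stranded and an unstranded library kit and 2 sequencing centres, without saying which library had which. An effect of 22 °C therefore cannot be told apart from an effect of the experiment, the kit or the centre. The difference between the 2 experiments at 17 °C was measured in the same way and is given beside the main results. Nothing in the labels says that libraries of one group came from separate sowings, so p-values measure the spread between these libraries, which may be technical.

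Plants respond to warmth well below the temperatures that injure them. In Arabidopsis, moderate warmth lengthens stems through the transcription factor PIF4, lowers the activity of floral repressors and changes the degree of unsaturation of membrane lipids. Stronger warmth releases class A1 heat shock factors from their chaperone partners, and the factors bind heat shock elements, repeats of the letters GAA and TTC, before genes for HSP70, HSP90, HSP101 and the small heat shock proteins. These proteins hold or refold other proteins that have lost their shape.

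The total count per library was 5790129 to 10694410 at 22 °C, against 15297839 to 22482293 in the 17-to-37 experiment and 7550886 to 26204053 in the 17-to-27 experiment at 17 °C. Genes of the chloroplast genome took 0.265 to 0.34% of the counts at 22 °C, against 0.336 to 0.506% and 0.202 to 5.43% in the same 2 sets at 17 °C. The highest value belonged to replicate 1 at 1 h of the 17-to-27 experiment. Defining markers of shoots and roots were present in both groups. The summed level of 23 light-harvesting and Rubisco genes was 47860 to 73490 CPM (counts divided by the scaled library size) at 22 °C, against 28240 to 64500 CPM at 17 °C. The summed level of the root cell type genes was 218 to 288 CPM at 22 °C, against 173 to 313 CPM at 17 °C. The summed level of seed storage genes was 0 to 1.33 CPM, against 0.113 to 4.63 CPM.

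At a Benjamini-Hochberg adjusted p under 0.05 in edgeR's quasi-likelihood test with time as a term, 2180 of 21712 tested genes (10%) differed between 22 and 17 °C. Of these, 1147 were higher (5.28%) and 1033 were lower (4.76%) at 22 °C. Most differences were small: called genes had a median of 0.54 log2 units where they were higher and of -0.50 where they were lower, and 177 of the higher and 140 of the lower genes reached 2-fold. All 4 libraries at 22 °C lay above all 11 at 17 °C for 352 genes (1.62%), and below all 11 for 325 genes (1.5%). Against the 17 °C libraries of the 17-to-27 experiment alone, 3327 genes differed (15.3%), 1737 higher (8%) and 1590 lower (7.32%). Against those of the 17-to-37 experiment alone, 713 genes differed (3.28%), 400 higher (1.84%) and 313 lower (1.44%). Between the 2 experiments at 17 °C, 343 genes differed (1.58%), 133 higher (0.613%) and 210 lower (0.967%) in the 17-to-37 experiment. The median absolute log2 fold change over all tested genes was 0.21 for 22 °C against the 17-to-27 libraries, 0.19 for 22 °C against the 17-to-37 libraries and 0.14 between the 2 experiments at 17 °C.

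The number of calls rested on few libraries. Without the 22 °C library at 15 min, 625 genes were called, and without those at 1 h, 0 min and 4 h the numbers were 866, 998 and 1195. Without the 17 °C library at 0 min of the 17-to-27 experiment, 1317 genes were called. The smaller comparisons moved more: without the 17 °C library at 1 h of the 17-to-37 experiment, 82 genes differed between 22 °C and that experiment and 52 between the 2 experiments at 17 °C. Without replicate 1 at 4 h of the 17-to-27 experiment, these numbers were 1119 and 642. For no gene did the difference between 22 and 17 °C change with time in edgeR's test of the product of temperature and time, where 731 genes had an unadjusted p under 0.05 and DESeq2 called 18 (0% called in edgeR). With 1 library at 22 °C per time, that test had 7 residual degrees of freedom.

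The genes named first were those past the test against all 17 °C libraries and against each 17 °C experiment alone that also had a mean level of 3 or more in log2 CPM and no overlap between the groups. There were 106 such genes higher and 82 lower at 22 °C, and the 12 with the largest changes in each direction are named. These conditions chose the genes, so that their separation is a description and not a further result. Of the 24, 21 stayed past the test in all 28 alternative fits. Over all 71 named genes that were called, lists included, 29 did so. Among genes named below, HSP101, MBF1C, CLPB3, HOP2, HSFB2B, FAD8, LHCB1.5, LHCB6, HSP17.4, CPHSC70-2, HSFA1B, ELF3, FER1, KMD4, AT2G20560, AT2G22840 and AT4G22513 overlap another gene in the files, so that reads of the 2 may have been mixed in libraries of an unstranded kit.

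Chaperones led the higher genes. HSP70-4 (AT3G12580, chromosome 3, 3991261 to 3993792 in TAIR10, as are all gene coordinates below), a cytosolic HSP70 that binds unfolded proteins, stood at 375, 629.9, 532 and 193 CPM at 0 min, 15 min, 1 h and 4 h at 22 °C, against a lowest value of 12.3, a median of 30.6 and a highest of 67.1 CPM over the 11 libraries at 17 °C. The lowest library at 22 °C, the one at 4 h, was still above the highest at 17 °C. Its log2 fold change was 3.595 ± 0.253 (SE; edgeR adjusted p = 1.44e-05), or 12.1-fold. The level at 17 °C was itself 0.77 log2 units higher in the 17-to-37 than in the 17-to-27 experiment (edgeR adjusted p = 0.0708).

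HSP90.1 (AT5G52640, chromosome 5, 21352399 to 21355361), the heat-inducible cytosolic HSP90, stood at 65.1, 88.9, 74.2 and 41.6 CPM at the 4 times at 22 °C, against 4.39 to 21 CPM at 17 °C with a median of 8.72. Here the 2 experiments at 17 °C did not overlap each other either, with 10.6 to 21 CPM in the 17-to-37 and 4.39 to 8.74 CPM in the 17-to-27 experiment. The log2 fold change was 2.80 ± 0.32 (edgeR adjusted p = 0.000785), 3.41 against the 17-to-27 libraries and 2.15 against the 17-to-37 libraries, and the difference between these 2 experiments was 1.26 (edgeR adjusted p = 0.000409).

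Co-chaperones of HSP90 followed. HOP3 (AT4G12400, chromosome 4, 7338659 to 7341363), which links HSP70 to HSP90, stood at 32.3, 43.8, 39.7 and 33.8 CPM at 22 °C, against 4.53 to 12.8 CPM at 17 °C with a median of 7.84. ROF2 (AT5G48570, chromosome 5, 19690542 to 19693845), an FKBP-type prolyl isomerase that binds HSP90, stood at 21.4, 30.9, 39.98 and 40.5 CPM at 22 °C, against 6.49 to 10.3 CPM at 17 °C with a median of 7.58. The log2 fold change of ROF2 was 2.03 ± 0.12 (edgeR adjusted p = 1.02e-06), beside 0.13 between the 2 experiments at 17 °C (edgeR adjusted p = 0.66). AT2G20560, annotated as a DNAJ heat shock protein that assists HSP70, had 20.5 to 47.9 CPM at 22 °C, against 3.96 to 13.7 CPM at 17 °C. HSP101 (AT1G74310), the disaggregase needed for acquired heat tolerance, had 77.8, 75.3, 44.7 and 41 CPM at 22 °C, against 9.4 to 38.9 CPM at 17 °C. For HSP101 the 1 h and 4 h libraries at 22 °C lay just above the highest library at 17 °C, which was a 15 min library. Compared within each time, its log2 fold changes were 1.622 at 0 min, 1.413 at 15 min, 0.894 at 1 h and 1.633 at 4 h. Its level at 17 °C was 0.87 log2 units higher in the 17-to-37 than in the 17-to-27 experiment (edgeR adjusted p = 0.00977).

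**Figure D1:**
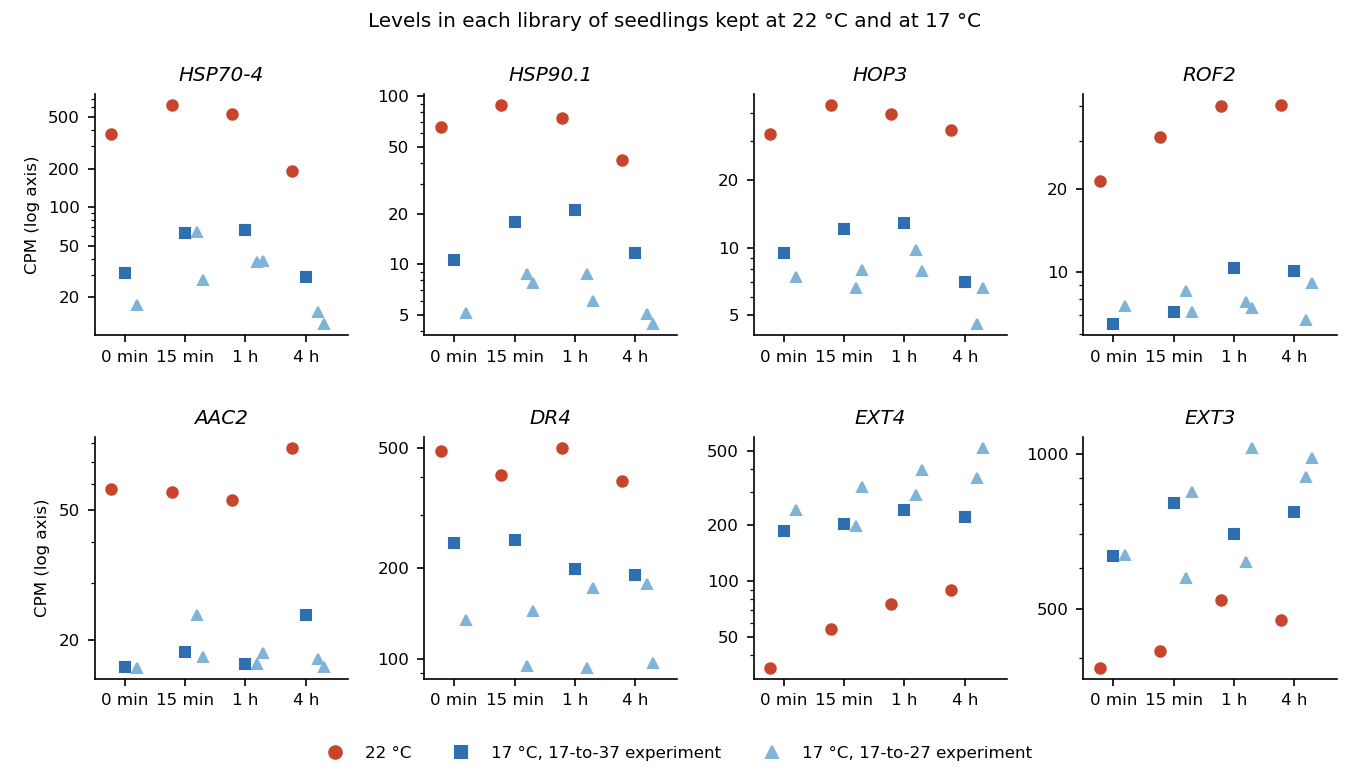
Level in CPM (log axis) of 8 of the named genes in each of the 15 libraries, by time, for 22 °C (circles), 17 °C of the 17-to-37 experiment (squares) and 17 °C of the 17-to-27 experiment (triangles). HSP70-4 lies between 193 and 629.9 CPM at 22 °C, against 12.3 to 67.1 CPM at 17 °C, and EXT4 lies at 34.4 to 89.4 CPM at 22 °C, against 185 to 518.5 CPM at 17 °C.

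Among the 25 members of a list of larger chaperones and their partners (HSP90, HSP70, HSP101 and its organelle relatives, HOP, ROF, DNAJ proteins, BAG6, HSA32 and MBF1C), 20 rose and none fell at 22 °C. The called share was 80%, against 10% of all tested genes, and the median log2 fold change was 0.56 against -0.02 over all genes. In the same list, 21 rose against the 17-to-27 libraries, 11 rose and 1 fell against the 17-to-37 libraries, and 4 were higher and none lower in the 17-to-37 than in the 17-to-27 experiment, where the median was 0.22. Over all tested genes, 8%, 1.84% and 0.613% were higher in these comparisons, in that order, and 1.44% were lower against the 17-to-37 libraries. The most abundant of them, the constitutive HSP70-1 (AT5G02500), had 2602 to 3298 CPM at 22 °C, against 1190 to 2255 CPM at 17 °C, a log2 fold change of 0.74 ± 0.10 (edgeR adjusted p = 0.00122). Its neighbour HSP70-2 (AT5G02490) had 43.98 to 103 CPM at 22 °C, against 14.1 to 50.2 CPM at 17 °C (1.48 ± 0.11, edgeR adjusted p = 7.03e-06). MBF1C, a transcriptional coactivator of the heat response, had 51.9, 56.7, 36.1 and 17 CPM at 22 °C, against 3.91 to 18.4 CPM at 17 °C (2.01 ± 0.26, edgeR adjusted p = 0.00117). Both HSP70-2 and MBF1C overlapped between the groups through their 4 h library. Called organelle members had log2 fold changes of 0.58 (the mitochondrial MTHSC70-2), 0.56 (the chloroplast CLPB3) and 0.47 (the chloroplast CPHSC70-1), and the smallest called changes, 0.32 for HOP2 and 0.35 for ROF1, belonged to other members.

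The 5 members that did not pass the test were CPHSC70-2 (0.30), BAG6 (0.01), HOP1 (0.01), HSP90.4 (0.01) and Hsp70b (-0.41). Hsp70b, a strongly heat-inducible cytosolic HSP70, had 3.64 to 12 CPM at 22 °C, against 13.8 to 15.2 CPM in the 17-to-37 and 3.58 to 6.04 CPM in the 17-to-27 experiment at 17 °C. It was the 1 member that fell against the 17-to-37 libraries. The count of 20 dropped to 12 without the 22 °C library at 15 min, to 8 without all 15 min libraries, to 12 without all 0 min libraries and to 8 when only the 17-to-37 libraries stood for 17 °C. HSP70-1, HSP70-2 and AT3G09440 encode near-identical proteins, as do HSP90.2, HSP90.3 and HSP90.4, and the counting could have split reads between such copies.

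**Figure D2:**
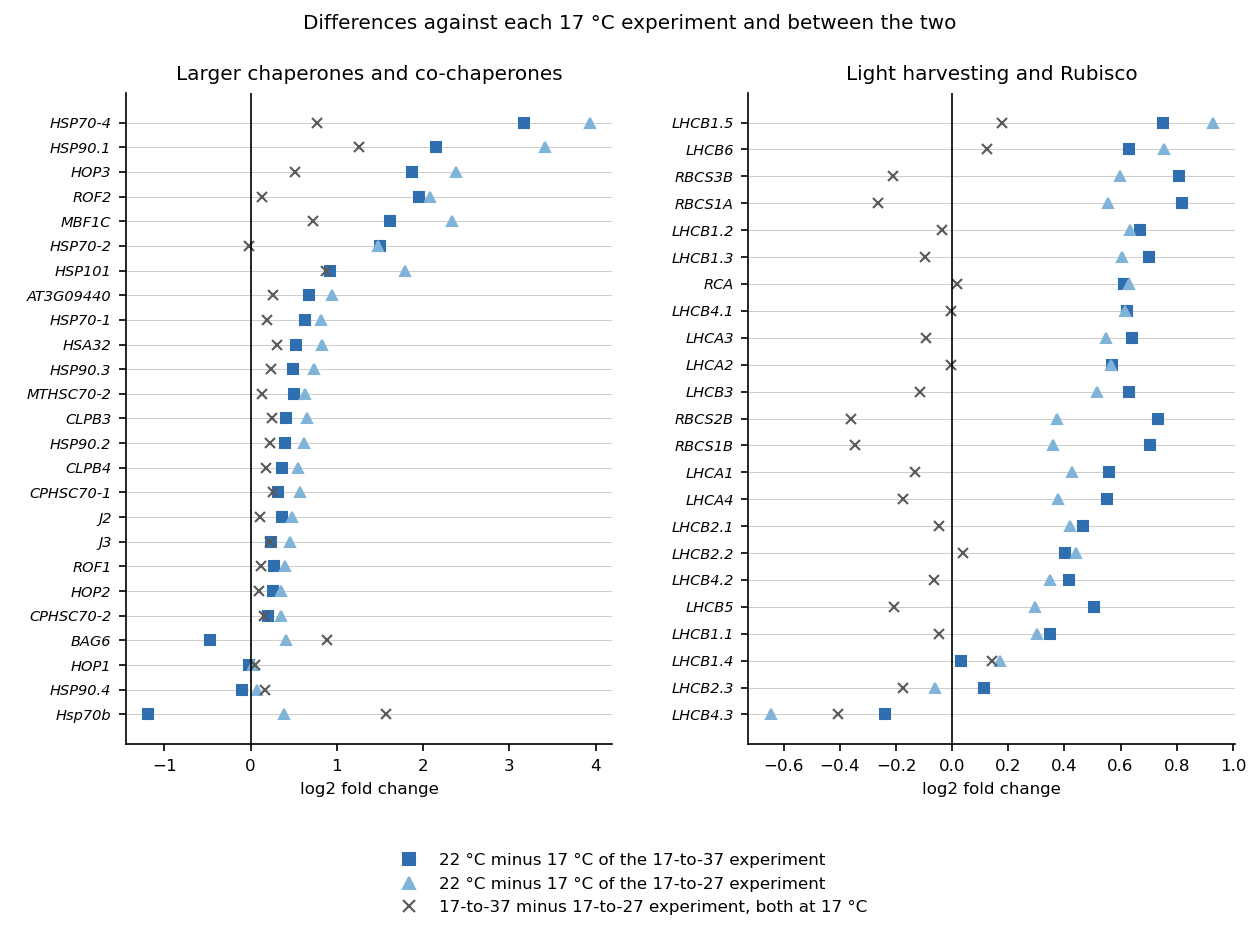
Log2 fold change of each member of 2 lists at 22 °C against 17 °C of the 17-to-37 experiment (squares) and of the 17-to-27 experiment (triangles), and between these 2 experiments at 17 °C (crosses). HSP70-4 and ROF2 lie far from 0 in both comparisons at 22 °C, with 3.166 and 1.948 against the 17-to-37 libraries, whereas Hsp70b lies at -1.19 against the 17-to-37 and 0.38 against the 17-to-27 libraries.

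The DNA before these genes was searched for the heat shock element, in the RefSeq genome TAIR10.1 and on both strands. In the 500 bases before the first annotated coding base, 3 alternating blocks, written GAANNTTCNNGAA, were found in 5 of the 12 highest genes (41.7%) and in 7 of the 20 larger chaperones that rose (35%), against 0 of the 12 lowest genes and 1.2% of 27443 protein-coding genes. They were also found in 1 of the 5 larger chaperones that did not pass the test (20%) and in 4 of the 18 small heat shock proteins (22.2%), of which 2 rose; members that did not rise thus held it too. Among all genes called higher at 22 °C the share was 3.63% (41 of 1128), among those called lower 1.38% (14 of 1018) and among all tested genes 1.35%. The shorter form with 2 blocks, GAANNTTC, which lies inside every longer match, was found in 66.7% of the 12 highest, 58.3% of the 12 lowest and 21% of all genes. This window was chosen after 250 bases before the annotated gene start had been searched. There GAANNTTC was found in 16.7% of the 12 highest, 16.7% of the 12 lowest and 9.55% of all promoters. In that shorter window it was found in 1 of the 20 larger chaperones that rose (5%), a lower share than over all promoters. The form with 3 blocks was searched only in the longer window. A match is a run of letters and not a measured binding site, and ROF2, AAC2, DR4 and AT5G12110 held neither form in the longer window. The matches before those 5 of the 12 highest genes and before the other called HSP70 genes of the chaperone list are shown with 8 bases on each side, on the strand of the gene, with the 3 blocks in capitals.
HSP70-4: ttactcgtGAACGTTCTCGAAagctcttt
HSP90.1: aacgaaaaGAACTTTCTGGAAttcgtttg
AT1G62510: tgttggaaGAATCTTCTCGAAcccagtct
HOP3: aaaaattcGAAATTTCGAGAActctcttg
AT2G20560: tcagagatTTCTCGAACGTTCcacagaat
HSP70-1: caaccatcGAACATTCTCGAAacatttta
HSP70-2: taattacaGAACATTCTGGAAactcaagt
AT3G09440: gagccatcGAACCTTCTCGAAactcgagt
CPHSC70-1: atcttctcTTCTCGAAACTTCaagtgggg
The stretch of HSP70-4 is chr3:3993846-3993874 on the minus strand, with its blocks starting 177 bases before the coding start, and that of HSP90.1 is chr5:21352254-21352282 on the plus strand, 295 bases before it. That of HOP3 is chr4:7341319-7341347 on the minus strand, 100 bases before the coding start, and that of HSP70-2 is chr5:552686-552714 on the minus strand, 141 bases before it. In AT2G20560 (chr2:8849996-8850024, minus strand) and in CPHSC70-1 (chr4:12589906-12589934, plus strand) the blocks read from the other strand. The stretch of AT1G62510 is chr1:23137371-23137399, that of HSP70-1 is chr5:556554-556582 and that of AT3G09440 is chr3:2905765-2905793, all on the minus strand. AT3G09440 held a further match, 282 bases before its coding start. By the gene bounds of the RefSeq annotation, the stretches of HSP90.1 and AT1G62510 lay outside the gene and the others inside it, ahead of the coding part. The TAIR10 bounds of the files are narrower for several of these genes, and by them the stretch of HOP3 alone lay wholly inside the gene.

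Small heat shock proteins, which bind unfolding proteins without using ATP, did not move as one. Of 18 tested members, 2 rose and none fell at 22 °C (11.1% called, against 10% of all tested genes). AT5G51440, annotated as an HSP20-like chaperone, had 15.2, 9.45, 11.3 and 23.7 CPM at 22 °C, against 1.06 to 3.69 CPM at 17 °C (log2 fold change 2.94 ± 0.27, edgeR adjusted p = 6.8e-05), with no overlap between the groups. AT2G19310, also HSP20-like, had 63.7, 79.9, 60.3 and 25.7 CPM at 22 °C, against 14.6 to 31.7 CPM at 17 °C (1.26 ± 0.15, edgeR adjusted p = 0.000514), and overlapped at 4 h. The uncalled AT1G07400 also lay above all 17 °C libraries. It had 9.17 to 20.3 CPM at 22 °C, against 1.13 to 8.55 CPM (1.82 ± 0.56, edgeR adjusted p = 0.0586). So did the scarce AT5G47600, at 0.798 to 1.85 CPM against 0 to 0.792 CPM. In all, 3 members lay wholly above and 1 wholly below, against 1.62 and 1.5% of all tested genes. The list's median log2 fold change was 0.48, made of 1.28 against the 17-to-27 libraries, where 8 rose, and 0.03 against the 17-to-37 libraries, where 2 rose and 5 fell. Over all tested genes, 8% rose against the 17-to-27 libraries, and 1.84% rose and 1.44% fell against the 17-to-37 libraries. Between the 2 experiments at 17 °C, 10 of the 18 were higher and none lower in the 17-to-37 experiment, with a median of 1.304, against 0.613% of all tested genes higher. The summed level of the list was 142 to 233 CPM at 22 °C, against 55.9 to 122 CPM at 17 °C.

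Several classical heat-inducible members were scarce in all unshifted libraries. HSP17.4 had 1.07 to 3.69 CPM at 22 °C, against 2.55 to 3.46 CPM in the 17-to-37 and 0.113 to 0.549 CPM in the 17-to-27 experiment. AT1G53540, annotated as HSP20-like, had 0.242 to 2.77 CPM at 22 °C, against 3.44 to 6.6 and 0.106 to 0.274 CPM in the same sets. Both genes reached their lowest levels in the 17-to-27 libraries. HSP17.6II and HSP17.6A, not called against all 17 °C libraries, had log2 fold changes of 4.56 and 3.88 against the 17-to-27 libraries. Against the 17-to-37 libraries these were 0.645 and 0.002. The chloroplast HSP21 had no count in the 4 libraries at 22 °C, against 58 counts at 17 °C, or 0.0528 to 0.92 CPM. Over these 4 libraries 3 counts, used as an approximate upper limit for a count of 0, would be 0.0827 CPM. The test of HSP21 against all 17 °C libraries did not pass (edgeR adjusted p = 0.129).

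**Figure D3:**
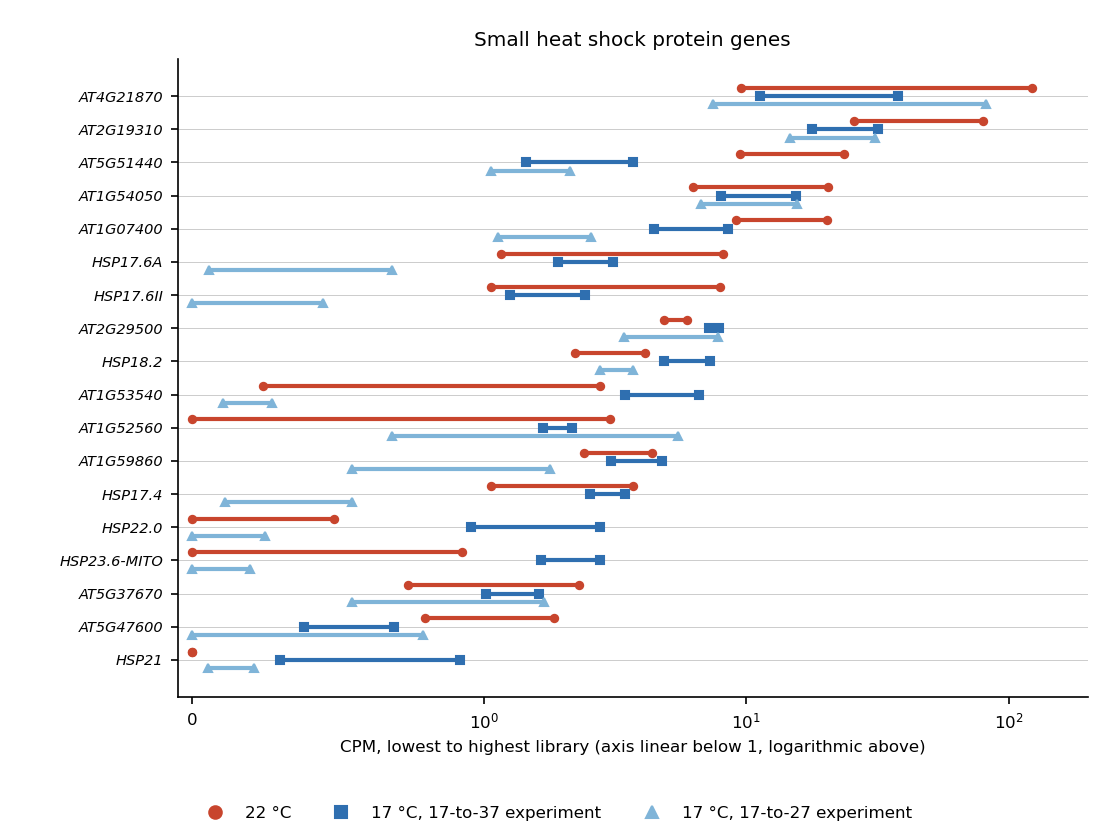
Range of levels in CPM, from the lowest to the highest library, of the 18 small heat shock protein genes at 22 °C (circles), at 17 °C in the 17-to-37 experiment (squares) and at 17 °C in the 17-to-27 experiment (triangles); the axis is linear below 1 and logarithmic above. AT5G51440 is separate at 22 °C, with 9.45 to 23.7 CPM against at most 3.69 CPM at 17 °C, whereas HSP17.4 at 22 °C overlaps the 17-to-37 libraries and lies above the 17-to-27 libraries.

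Of the 19 heat shock factors tested, 3 rose and 1 fell at 22 °C (21.1% called, against 10% of all tested genes). HSFA2, the heat-induced amplifier of the response, had 16.4, 19, 11 and 5.54 CPM at 22 °C, against 0.74 to 6.67 CPM at 17 °C (1.91 ± 0.40, edgeR adjusted p = 0.013). Its 4 h library at 22 °C lay within the 17 °C range over all times, and at 4 h alone HSFA2 had 0.74 to 3.31 CPM at 17 °C. The class B factors HSFB2A and HSFB2B, which repress transcription, rose by 0.73 ± 0.16 and 0.67 ± 0.14, and HSFB4, known from root development, fell by 0.59. The constitutive factors that start the response did not pass the test, with log2 fold changes of -0.02 for HSFA1A, -0.18 for HSFA1B, -0.08 for HSFA1D and -0.45 for HSFA1E. The count of 3 dropped to 0 without the 22 °C library at 0 min, to 1 without that at 15 min and to 2 without that at 1 h. HSFB1 had no count in any of the 15 libraries, and a lack of its RNA cannot be told apart from a gap in the authors' counting.

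In the endoplasmic reticulum, folding genes gave 1 higher and 1 lower of 17 (11.8% called, against 10% of all tested genes). The higher was BZIP28, a membrane-bound sensor of unfolded proteins (0.31 ± 0.08), and the lower was AT5G07340, annotated in the calreticulin family, which fell by 0.47. Both calls were lost without the 22 °C library at 15 min, 1 h or 4 h.

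The levels at 22 °C can be set beside those of the shifted libraries, with all 27 libraries on one scale and no test. HSP70-4 had 11.9 to 64.7 CPM at 17 °C, 187 to 601 CPM at 22 °C, 954 to 1811 CPM after 15 min and 126 to 150 CPM after 4 h at 27 °C from 17 °C, and 3684 to 8221 CPM at 37 °C. The HSP70-4 level kept at 22 °C was thus above that of seedlings 4 h after a shift from 17 to 27 °C and below that of seedlings 15 min after it. After 4 h at 27 °C from 22 °C, HSP70-4 had 492 CPM, within its range over all times at 22 °C and above its 4 h library there (187 CPM). HSP90.1 at 22 °C (40.2 to 84.8 CPM over all times) spanned its levels 4 h after the shift from 17 °C (60.8 to 62.5 CPM). At 4 h alone, its 22 °C library had 40.2 CPM, below those levels. HOP3 at 22 °C (31.1 to 41.8 CPM) lay below its levels there (56 to 70.2 CPM). ROF2 had 6.26 to 9.999 CPM at 17 °C, 20.6 to 39.2 CPM at 22 °C, 43.9 to 53.1 CPM after 4 h at 27 °C from 17 °C, and 1596 to 3720 CPM at 37 °C, so that ROF2 at 22 °C stayed below each shifted group.

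**Figure D4:**
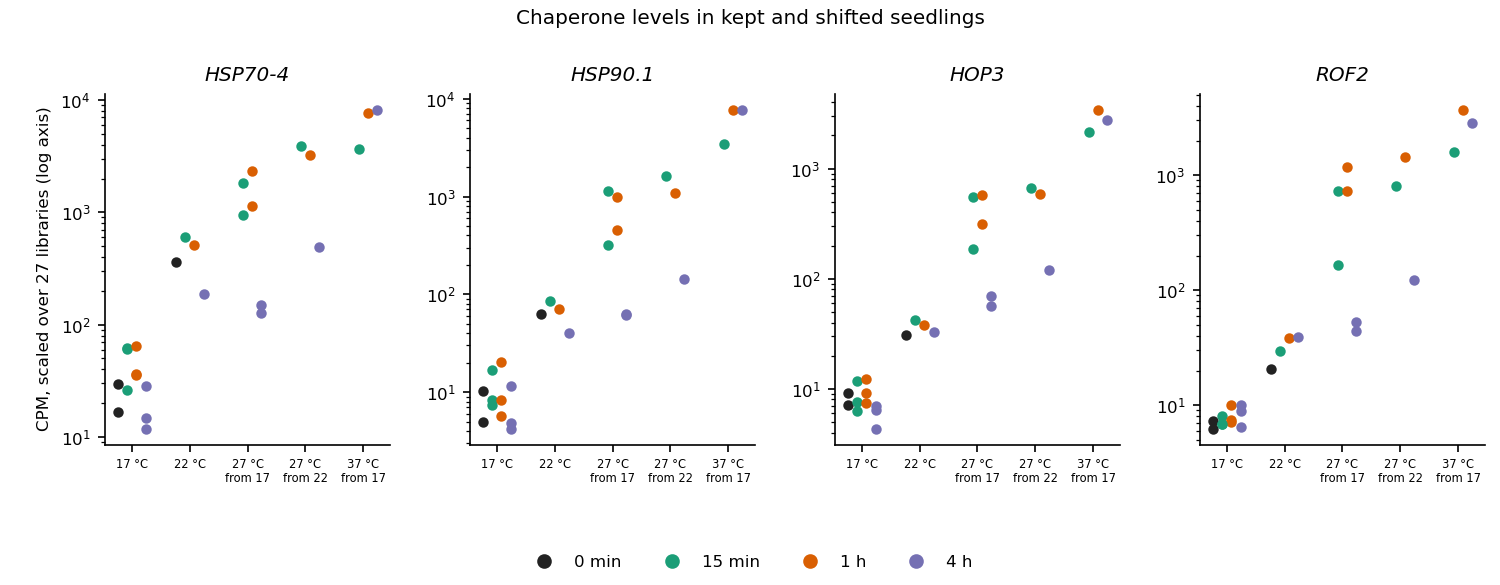
Level in CPM (log axis, all 27 libraries scaled together) of 4 chaperone genes at 17 °C, at 22 °C, at 27 °C after a shift from 17 or from 22 °C, and at 37 °C after a shift from 17 °C, coloured by time; each point is 1 library. In HSP70-4, seedlings kept at 22 °C lie at 187 to 601 CPM, between 11.9 to 64.7 CPM at 17 °C and 3684 to 8221 CPM at 37 °C.

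The other genes among the 12 highest had varied roles. AAC2 (AT5G13490, chromosome 5, 4335467 to 4337680), an ADP/ATP carrier of the mitochondrial inner membrane, was steady in both groups, with 57.9, 56.7, 53.5 and 77.4 CPM at 22 °C, against 16.5 to 23.9 CPM at 17 °C with a median of 17.56. Its log2 fold change was 1.73 ± 0.10 (edgeR adjusted p = 1.02e-06), and the 2 experiments at 17 °C differed by 0.06 (edgeR adjusted p = 0.852). AT5G12110, annotated as elongation factor 1-beta 1, a part of the machinery that brings tRNAs to the ribosome, had 74.7, 112, 97 and 24.2 CPM at 22 °C, against 9.73 to 22.7 CPM at 17 °C. The 4 h library of AT5G12110 was thus just above the highest at 17 °C.

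AT1G62510, annotated as a bifunctional inhibitor or lipid-transfer protein, had 49.6, 111, 212 and 103 CPM at 22 °C, against 8.43 to 45.7 CPM at 17 °C. DR4, annotated as drought-repressed 4, had 388 to 499.7 CPM at 22 °C, against 93.5 to 247 CPM at 17 °C. The cytochrome P450 gene CYP72A8 (39.9 to 87.8 CPM at 22 °C, against 6.87 to 36.2 CPM at 17 °C) and AT3G24100, of an uncharacterized family (45.9 to 58.8 CPM, against 9.95 to 27.2 CPM), completed the 12.

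EXT4 (AT1G76930, chromosome 1, 28895301 to 28896883), an extensin, a rod-like glycoprotein that is cross-linked into the wall, had 34.4, 55.3, 75.1 and 89.4 CPM at 22 °C, against a lowest value of 185, a median of 239.8 and a highest of 518.5 CPM at 17 °C. The highest library at 22 °C, that of 4 h, was far below the lowest at 17 °C, and the log2 fold change was -2.18 ± 0.24 (edgeR adjusted p = 0.000422). Its relative EXT3, needed for the new wall between dividing cells, had 383, 414, 519.9 and 474 CPM at 22 °C, against 572.5 to 1030 CPM at 17 °C (-0.76 ± 0.14, edgeR adjusted p = 0.00627). NSP3, a nitrile specifier protein that steers the breakdown of glucosinolates, had 3.14 to 6.67 CPM at 22 °C, against 6.82 to 21.5 CPM at 17 °C, with its 2 nearest libraries of the groups almost touching.

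The remaining 9 of the 12 lowest changed by -0.91 to -0.69 on the log2 scale. They included 3xHMG-box1, a protein of mitotic chromosomes (7.68 to 9.21 CPM at 22 °C, against 10.7 to 19.6 CPM at 17 °C), AT1G47970, annotated as nucleolin, a protein of the nucleolus (24.8 to 42.9 CPM, against 46.1 to 79 CPM), and AT2G22840, annotated as growth-regulating factor 1, a leaf growth factor (9.07 to 13.7 CPM, against 13.8 to 30.1 CPM). SNRK2.5, a kinase of the osmotic stress family, had 5.33 to 6.88 CPM at 22 °C, against 7.53 to 12.3 CPM at 17 °C. The others were AT4G22513, AT1G04800, AT5G07810, AT3G50550 and AT1G55340.

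Nuclear genes of photosynthesis were the second list with many higher members. Of 23 light-harvesting and Rubisco genes, 14 rose and none fell at 22 °C (60.9% called, against 10% of all tested genes). The list's median was 0.49 log2 units. It was 0.44 against the 17-to-27 and 0.61 against the 17-to-37 libraries, and -0.09 between the 2 experiments at 17 °C, where no member passed the test. LHCB6, an antenna protein of photosystem II, had 1733, 1951, 2053 and 2585 CPM at 22 °C, against 747 to 1680 CPM at 17 °C (0.71 ± 0.11, edgeR adjusted p = 0.00235), with no overlap. LHCB4.1 was the other member without overlap, at 1727 to 2518 CPM, against 888 to 1692 CPM at 17 °C. RCA, the activase that keeps Rubisco open, had 6169 to 7783 CPM at 22 °C, against 3229 to 6631 CPM at 17 °C (0.62 ± 0.13, edgeR adjusted p = 0.0105).

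LHCB1.5 changed most, by 0.86 ± 0.13, and the LHCB1 and RBCS genes are near-identical copies. At the other end LHCB4.3, a rarer antenna form, had -0.51 ± 0.16 (edgeR adjusted p = 0.0555). Other abundant genes moved the same way: of 56 genes outside the list whose mean level reached 10 in log2 CPM, 25 rose (44.6%) and none fell, against 14 of the 21 list members at that level (66.7%). The count of 14 dropped to 4 without the 22 °C library at 15 min, to 9 without that at 0 min or 4 h, to 3 without all 15 min libraries and to 7 without all 0 min libraries. It was 18 without the 17 °C library rich in chloroplast counts. In whole seedlings, more green tissue and more RNA of these genes per cell cannot be told apart.

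Of 3 genes of light stress, ELIP1 and ELIP2, pigment-binding proteins made under excess light, fell by 0.88 and 0.74, and PSBS, which switches on the loss of excess light as heat, rose by 0.54 ± 0.08. PSBS had 1393 to 1560 CPM at 22 °C, against 858 to 1201 CPM at 17 °C, with no overlap. The 2 lower calls were lost without the 22 °C library at 15 min or at 1 h, and 1 was lost without that at 4 h or without any of 4 libraries of the 17-to-27 experiment (0 min, both replicates at 15 min and replicate 2 at 1 h). ELIP1, called in 15 of 28 alternatives, had 169, 97.6, 58.2 and 11.5 CPM at 0 min, 15 min, 1 h and 4 h at 22 °C, against 39.1 to 189.6 CPM at 17 °C. Its log2 fold changes at these times were 0.07, -0.63, -1.46 and -1.87, and their change with time had an unadjusted p of 0.000414 in edgeR (adjusted p = 1).

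**Figure D5:**
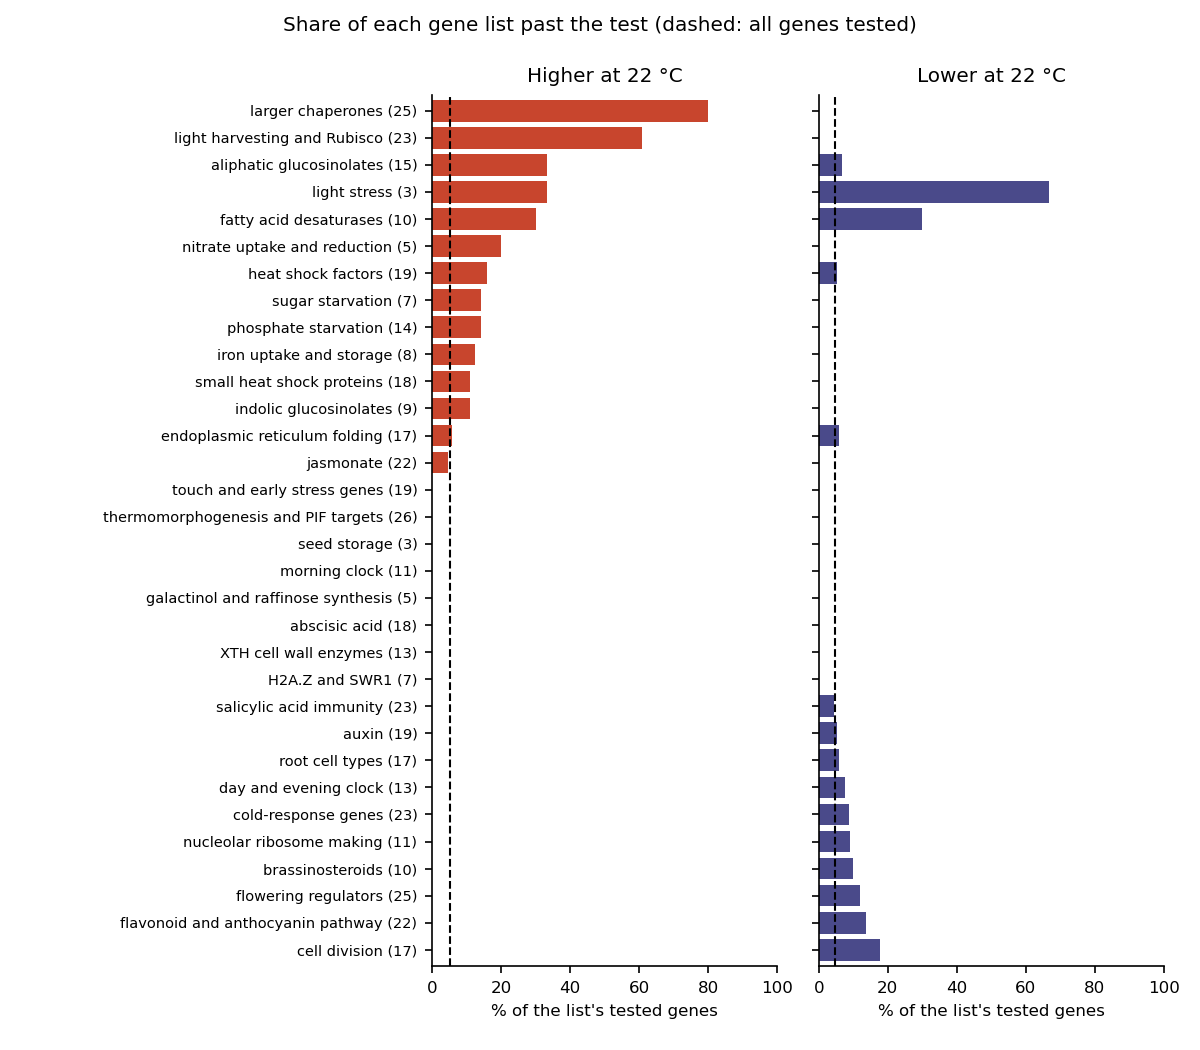
Share of the tested genes of each of 32 gene lists that was past the test, higher at 22 °C (left) or lower (right), with the number tested in brackets; the dashed lines are the shares over all genes tested, 5.28% and 4.76%. The larger chaperones (20 of 25) and the light-harvesting list (14 of 23) stand out on the higher side.

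Fatty acid desaturases moved in both directions. Of 10 enzymes, 3 rose and 3 fell at 22 °C (60% called, against 10% of all tested genes). FAD2, which makes linoleate in the endoplasmic reticulum, had 578, 702, 646 and 596 CPM at 22 °C, against 324 to 439 CPM at 17 °C (0.74 ± 0.10, edgeR adjusted p = 0.00085). Its plastid counterpart FAD6 rose by 0.32 ± 0.07, and SSI2, the stearoyl desaturase of plastids, by 0.31 ± 0.07. Of the 3 enzymes that add a further double bond, 2 fell: FAD3 of the endoplasmic reticulum had 69.7 to 103 CPM at 22 °C, against 93.1 to 149.7 CPM at 17 °C (-0.54 ± 0.08, edgeR adjusted p = 0.00192), and FAD8, a plastid form known for its response to cold, changed by -0.37 ± 0.07. The third, the plastid FAD7, had 324 to 378 CPM at 22 °C, against 274 to 382 CPM at 17 °C (0.05 ± 0.09, edgeR adjusted p = 0.731). ADS2, a desaturase that is needed for growth in the cold, changed by -0.62 ± 0.13. The 3 that fell stayed past the test with any single library left out, whereas the count of 3 that rose dropped to 1 without the 22 °C library at 15 min or at 4 h.

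Cold-response genes gave 2 lower and none higher of 23 (8.7% called, against 10% of all tested genes). LTI30, a dehydrin, changed by -1.02 ± 0.26 (edgeR adjusted p = 0.0282), with 28.9 to 137 CPM at 22 °C, against 52.6 to 362 CPM at 17 °C. GRP7, an RNA-binding protein under clock control, changed by -0.48 ± 0.13 (edgeR adjusted p = 0.0299). The cold factor CBF3 did not pass the test, with 0 to 3.64 CPM at 22 °C, against 0.112 to 8.99 CPM at 17 °C (edgeR adjusted p = 0.216). The median of the list was -0.47 against the 17-to-27 and 0.35 against the 17-to-37 libraries, so that its direction depended on which 17 °C experiment was used. The count of 2 dropped to 0 without the 22 °C library at 0 min, 1 h or 4 h or without the 17 °C library at 0 min of the 17-to-27 experiment, and to 1 without the 22 °C library at 15 min. It was 4 without the 17 °C library at 1 h of the 17-to-37 experiment.

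Genes of warmth-induced growth were not called in the test against all 17 °C libraries. None of 26 thermomorphogenesis genes and PIF targets passed the test (0% called, against 10% of all tested genes), with a median log2 fold change of 0.07. DESeq2 called 4 of them higher, 2 were higher and 1 lower against the 17-to-27 libraries alone, and 2 were higher without the 17 °C library at 1 h of the 17-to-37 experiment. PIF4, the central factor of that response, had 19.9, 48.6, 110.2 and 87.8 CPM at 22 °C, against 10.07 to 106 CPM at 17 °C (0.56 ± 0.20, edgeR adjusted p = 0.0952), and its levels spread widely over the 4 times in both groups. Of 19 auxin genes 1 fell, the auxin-induced repressor IAA1 (-0.72 ± 0.20), and of 10 brassinosteroid genes 1 fell, the synthesis enzyme BR6OX2 (-0.39 ± 0.10). The called shares were 5.26 and 10%, against 10% of all tested genes. Both calls were lost without any 1 of the 4 libraries at 22 °C. None of 7 genes of the histone variant H2A.Z and its exchange complex SWR1, and none of 13 XTH wall enzymes, was past the test. With 10% of all tested genes called, lists this short would hold few calls at that share.

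Of 25 tested flowering regulators 3 fell and none rose (12% called, against 10% of all tested genes). All 3 were MADS-box floral repressors of the FLC group: FLM, whose splicing follows temperature, had 32.1 to 37.9 CPM at 22 °C, against 41 to 55.8 CPM at 17 °C (-0.43 ± 0.09, edgeR adjusted p = 0.0114). MAF3 had 11.3 to 13.7 CPM, against 15.1 to 21.3 CPM, and MAF2 had 29.6 to 32.6 CPM, against 34 to 46.7 CPM at 17 °C. None of the 3 overlapped between the groups, as was so for 1.5% of all tested genes in that direction. The count of 3 dropped to 1 without the 22 °C library at 1 h and to 0 with the 17-to-37 libraries alone at 17 °C. FLC itself had 6.28 to 9.94 CPM at 22 °C, against 3.4 to 9.79 CPM at 17 °C (0.26 ± 0.23, edgeR adjusted p = 0.519), and the florigen gene FT had 0.37 to 1.7 CPM, against 0.113 to 1.85 CPM (edgeR adjusted p = 0.791).

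Few clock genes were called, 0% of the morning and 7.69% of the day and evening genes, against 10% of all tested genes. None of 11 morning genes was called, and CCA1, a dawn repressor, had 533, 545, 347 and 148 CPM at the 4 times at 22 °C, against 132 to 567 CPM at 17 °C (0.05 ± 0.09, edgeR adjusted p = 0.771). Of 13 day and evening genes 1 fell: ELF3, part of the evening complex and a thermosensor in Arabidopsis, had 21 to 34.2 CPM at 22 °C, against 27.1 to 49.6 CPM at 17 °C (-0.50 ± 0.09, edgeR adjusted p = 0.00741).

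Among defence compounds, 5 of 15 genes of aliphatic glucosinolates rose and 1 fell (40% called, against 10% of all tested genes). CYP79F1, the first enzyme on the core path, changed by 0.52 ± 0.13, the chain-elongating MAM1 by 0.48 ± 0.12, the regulator MYB76 by 0.64 ± 0.18, and CYP83A1 and SUR1 by 0.33 ± 0.09 and 0.44 ± 0.11. MAM3, which also makes long side chains, went the other way, with 40.7 to 95.2 CPM at 22 °C, against 74.4 to 142 CPM at 17 °C (-0.81 ± 0.16, edgeR adjusted p = 0.00822). The count of 5 dropped to 0 without the 22 °C library at 15 min or at 1 h, to 1 without that at 4 h and to 3 without that at 0 min. Of 9 indolic glucosinolate genes UGT74B1 rose (0.47 ± 0.13), so that 11.1% were called.

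Of 22 flavonoid genes 3 fell (13.6% called, against 10% of all tested genes), the regulators MYB111 (-0.90 ± 0.20), MYB12 (-0.82 ± 0.23) and GL3 (-0.79 ± 0.23). This count dropped to 1 without the 22 °C library at 15 min, 1 h or 4 h, and without the 17 °C library at 0 min, replicate 2 at 15 min or replicate 2 at 1 h of the 17-to-27 experiment. Of 23 salicylic acid immunity genes 1 fell (4.35% called), CBP60G, a factor of salicylic acid synthesis (-1.02 ± 0.21). PR1, the classical marker of that pathway, had no count at 22 °C, against 58 counts over the 11 libraries at 17 °C, and did not pass the test (edgeR adjusted p = 0.213). Of 22 jasmonate genes 1 rose (4.55% called), the storage protein VSP1 (1.14 ± 0.33, edgeR adjusted p = 0.0464), called in 9 of 28 alternatives.

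In nutrition, the iron store FER1 had 425, 200.2, 113 and 432 CPM at 22 °C, against 30.3 to 210 CPM at 17 °C with a median of 45.6 (2.12 ± 0.48, edgeR adjusted p = 0.0204). The call of FER1 was lost without the 22 °C library at 0 min, 15 min or 4 h. FER1 was 1 of 8 iron genes, and the other 7, genes of iron uptake and its regulators, did not pass the test but all had log2 fold changes below 0, from -3.546 for BHLH100 (edgeR adjusted p = 0.0504) to -0.24 for FRU. BHLH38, BHLH39 and BHLH100, factors that switch on iron uptake, were lower against the 17-to-27 libraries alone, DESeq2 called 3 members lower, and 2 were lower without replicate 1 at 1 h of the 17-to-27 experiment. NIR1, the nitrite reductase of chloroplasts, rose by 0.49 ± 0.12 among 5 nitrate genes. SQD1, for sulfolipid synthesis, and PHO1;H1, a phosphate exporter, rose by 0.78 ± 0.17 and 0.52 ± 0.14 among 14 phosphate genes. That count of 2 was 0 without the 22 °C library at 15 min or 1 h, 1 without that at 0 min or the 17 °C library at 0 min of the 17-to-27 experiment, and 4 in the fit that had the replicate number as a term (replicate block). KMD4, an F-box protein, rose by 0.59 ± 0.14 among 7 sugar starvation genes. The called shares were 12.5% for iron, 20% for nitrate, 14.3% for phosphate and 14.3% for sugar starvation, against 10% of all tested genes. NIR1 and KMD4 were each called in 21 of 28 alternatives, and neither was called without the 22 °C library at 0 min or at 15 min.

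Of 17 cell division genes 3 fell and none rose: the Aurora kinase AUR1 (-0.37 ± 0.10), the replication clamp PCNA1 (-0.37 ± 0.10) and the mitotic cyclin CYCB1;4 (-0.34 ± 0.10). This count dropped to 0 without the 22 °C library at 0 min, 1 h or 4 h and without the 17 °C library at 0 min of the 17-to-27 experiment, and to 1 without the 22 °C library at 15 min. It was 5 without replicate 1 at 4 h of the 17-to-27 experiment. Of 11 nucleolar genes 1 fell (9.09% called), the NOP56-like AT3G12860 (-0.63 ± 0.14). Of 17 root genes 1 fell (5.88% called), the root cap factor SMB (-0.98 ± 0.22). No member passed the test among 19 touch and early stress genes, 18 abscisic acid genes, 5 galactinol and raffinose genes and 3 seed storage genes, against 10% of all tested genes. For the abscisic acid genes, 15 of 18 of which had a log2 fold change above 0, the count moved with single libraries: 5 were higher without replicate 1 at 15 min of the 17-to-27 experiment and 1 without the 22 °C library at 4 h. DESeq2 called 1 of them.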

How the data were processed

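Per the labels, paired reads came from mRNA library kits on a HiSeq2000. The submitters' processing notes name TopHat, Trimmomatic, Picard and FastQC and the TAIR10 build; the counting program, versions and settings were not given in these sources. The deposited count per gene was made by the authors and is a whole number. The authors also deposited FPKM and TPM per gene, per the file headers; neither was used in a test.

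Counts of the 15 unshifted libraries were filtered with filterByExpr (minimum count 10), scaled by TMM and fitted in edgeR 4.0.16 (R 4.3.3) with time and temperature, with time and experiment, or with time, temperature and their product; genes were called at an adjusted p of 0.05. SE is the absolute log2 fold change divided by the square root of F. DESeq2 1.42.0 was an alternative. The code was tested on simulated data. CPM are TMM-scaled. Genes were named by rule: the 12 highest and 12 lowest genes described above, 7 fixed genes (PIF4, CCA1, HSP70-4, FT, FLC, CBF3 and PR1), and up to 4 called members of each of 32 lists (490 entries, 13 of them under the filter); further list members were chosen after their values were seen. The members and lists were chosen with earlier results of these data known. Of 33557 genes, 32810 matched the RefSeq annotation by locus. No 2 libraries held identical counts. The replicate numbers of the 17-to-27 libraries were not used to pair samples in the main fits. The precision of a level is limited by depth, and counting limits cover counting error only.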

Additional observations from a re-analysis of the deposited data

Results flagged for a closer look

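Replicate 1 at 1 h of the 17-to-27 experiment at 17 °C had 5.43% of its counts on chloroplast-genome genes, against at most 1.25% in the other 6 libraries of its set, and 0.551% on mitochondrial-genome genes, against at most 0.108%. In each measure its gap to the next library was large for a set of 7. A library is marked in this way by chance in about 1 of 20 sets, and 9 sets were examined. The high shares were not particular to that library. Replicate 1 at 1 h at 27 °C of the same experiment, outside these sets, had 6.448 and 0.571%. The cause was not tested. Without replicate 1 at 1 h at 17 °C, 2315 genes differed between 22 and 17 °C, against 2180 with it.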

How the results depend on the processing

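Calls between 22 and 17 °C numbered 2180 (1147 higher, 1033 lower) and kept within 1.5 times under DESeq2 (2802), DESeq2's size factors (2150), no filter on low counts (1913), organelle genes left out (2171) and the mean of the 2 experiments as the 17 °C level (2399). Without all libraries of 0 min, 15 min, 1 h or 4 h there were 711, 318, 893 and 1407 calls. With only the 17-to-37 libraries for 17 °C there were 670, and with only libraries numbered 1 or not numbered 992. Leaving out single libraries gave 625 to 2485. Against the 17-to-27 libraries (3327 calls), the same time points gave 1509, 839, 1606 and 2465, and single libraries 1736 to 4009. Against the 17-to-37 libraries (713 calls), they gave 71, 26, 43 and 454, single libraries 82 to 1119, and DESeq2 1540. Between the 2 experiments at 17 °C (343 calls), they gave 85, 17, 16 and 196, single libraries 52 to 642, and DESeq2 1130. DESeq2 called 18 genes whose difference changed with time. The cause of these shifts was not tested, beyond the smaller number of libraries in each.

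With the replicate number as a block, 1511 genes were called (832 higher, 679 lower). The numbers were not taken as a pairing: between times, the differences of number 1 and number 2 correlated across genes at 0.27, 0.09 and 0.21. The chloroplast-genome share at 17 °C went with the number, however. At 15 min, 1 h and 4 h it was 1.248, 5.427 and 0.816% in number 1, against 0.284, 0.252 and 0.209% in number 2. The 0 min library, taken as number 1, had 0.202%. Whether the numbers mark a batch was not tested, and fits that use them rest on this assignment. The numbers were those of the titles: libraries at 22 °C and of the 17-to-37 experiment have none there and were counted as number 1, as another label of theirs has it, and the 17-to-27 library at 0 min is number 1 in its title but 2 in that label. No alternative reversed the direction of any of the 71 called genes named by rule, and other called genes were not checked for this. The uncalled FT, FLC and CCA1 changed sign in 7 values, with ranges of -0.35 to 0.77, -0.07 to 0.57 and -0.07 to 0.13. Among 2152 values of 77 named genes under 28 alternatives, 337 lost and 3 gained the call. Depth at 22 °C was the lowest of the sets, and scarce genes such as HSP21 rest on few counts.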
